A study of Sus scrofa with 24 samples.

Results

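The comparison described here set the colon against the ileum of sows fed the low-fibre diet (LF, 3.73% crude fibre, no N-carbamylglutamate). It used 6 of the 24 libraries of the series, the 3 labelled colon and the 3 labelled ileum on that diet, chosen by tissue and diet labels and not by any measured value. The study fed 4 diets, with 100 sows per diet, from breeding through the 114 days of gestation. The other diets were low fibre plus 0.05% N-carbamylglutamate (LN), high fibre (HF, 7.46% crude fibre) and high fibre plus 0.05% N-carbamylglutamate (HN). N-carbamylglutamate, abbreviated NCG, stands in for the natural compound that switches on carbamoyl phosphate synthetase 1, which feeds the urea cycle and arginine synthesis in the gut. All animals were female pigs, and the RNA was poly(A)-selected RNA of ileum or colon tissue. The labels state neither how many sows gave the 3 libraries of a group nor whether ileum and colon with the same number came from 1 sow. The p-values therefore measure the spread between these libraries, which may be technical.

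The ileum is the last stretch of the small intestine. Its enterocytes carry a brush border of sugar- and peptide-splitting enzymes, export fat as chylomicrons and, at the distal end, recover bile acids and cobalamin from the lumen. The colon lacks most of that machinery and absorbs salt, water and the short-chain fatty acids made by fibre-fermenting bacteria, behind a thick mucus layer. Position along the gut is written in the cells by HOX genes and GATA factors, of which the posterior HOX genes mark the hindgut and GATA4 the proximal small intestine.

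Levels are given in CPM (the read count scaled to a fixed normalised library size), always in the order of libraries LF 1, 2 and 3, and with ileum before colon where the tissues are not named. Differences are colon minus ileum on the log2 scale (n = 3 libraries per tissue). The value after ± is an approximate standard error, the absolute difference divided by the square root of the test's F value. It is not reliable for genes near 0 counts in a tissue. Adjusted p-values are from edgeR's quasi-likelihood test with Benjamini-Hochberg adjustment over the 15675 genes tested. A gene was called at an adjusted p under 0.05. The fitted difference of a gene near 0 counts in a tissue depends on the prior count of the fit, so such genes are given by a bound or a ratio of mean CPM with its counting interval, which covers counting error only. The 6 libraries held 13397821 to 19896941 counts on genes, and 16309 to 16974 genes had at least 1 count. Counts of libraries of 1 tissue differed beyond sampling noise, so none was 1 library deposited again; this does not show that they came from different sows.

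Some of these libraries stood apart or went against their labels, and this touches most results below. Colon LF 2 held little epithelial RNA. Its mean over 18 epithelial genes was 2.68 log2 CPM, against 6.75 and 8.44 in colon LF 1 and 3 and 7.41 to 8.02 in ileum. Its mean over 17 smooth muscle genes was the highest of the 6 libraries at 12.06, against 11.56 and 9.97 in the other colon libraries and 6.58, 8.58 and 10.66 in ileum LF 1, 2 and 3. In bulk tissue, fewer cells of a type and less RNA per cell cannot be told apart. The ileum libraries differed among themselves in genes that mark position along the small intestine, a set chosen after their values were seen. FABP6, the ileal bile acid binding protein, was at 8419 CPM in ileum LF 1 and at 0.475 and 0 CPM in ileum LF 2 and 3. SLC10A2, the apical bile acid transporter of the terminal ileum, was at 225, 0 and 0.416 CPM and CUBN, the cobalamin receptor subunit, at 747, 1.11 and 1.25 CPM. GATA4 ran the other way at 0.573, 98.7 and 71.7 CPM, and so did PDX1, a duodenal transcription factor, at 0.287, 52.6 and 24.5 CPM and motilin (MLN) at 0, 67.3 and 44.0 CPM. The defining ileal markers were thus at or near 0 in the libraries labelled ileum LF 2 and LF 3, which instead carried proximal markers. Across the series, 3 of the 12 ileum libraries had FABP6 above 500 CPM (827.5 to 8419) and the other 9, all LN libraries among them, were at 0 to 38.0 CPM. Ileum LF 1 also carried more B-cell and follicle RNA, with a mean over 24 such genes of 5.64 log2 CPM against 3.13 and 2.24 in ileum LF 2 and 3. The colon against ileum calls on LF were therefore also computed without colon LF 2, without ileum LF 1, and with ileum LF 1 as the only LF ileum library. Values of single genes in these fits are given for some genes only. The fit with ileum LF 1 alone is not reported for the tests between diets. That fit was chosen after seeing the data, and it assumes that a lone library varies like those of the other groups.

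**Figure D1:**
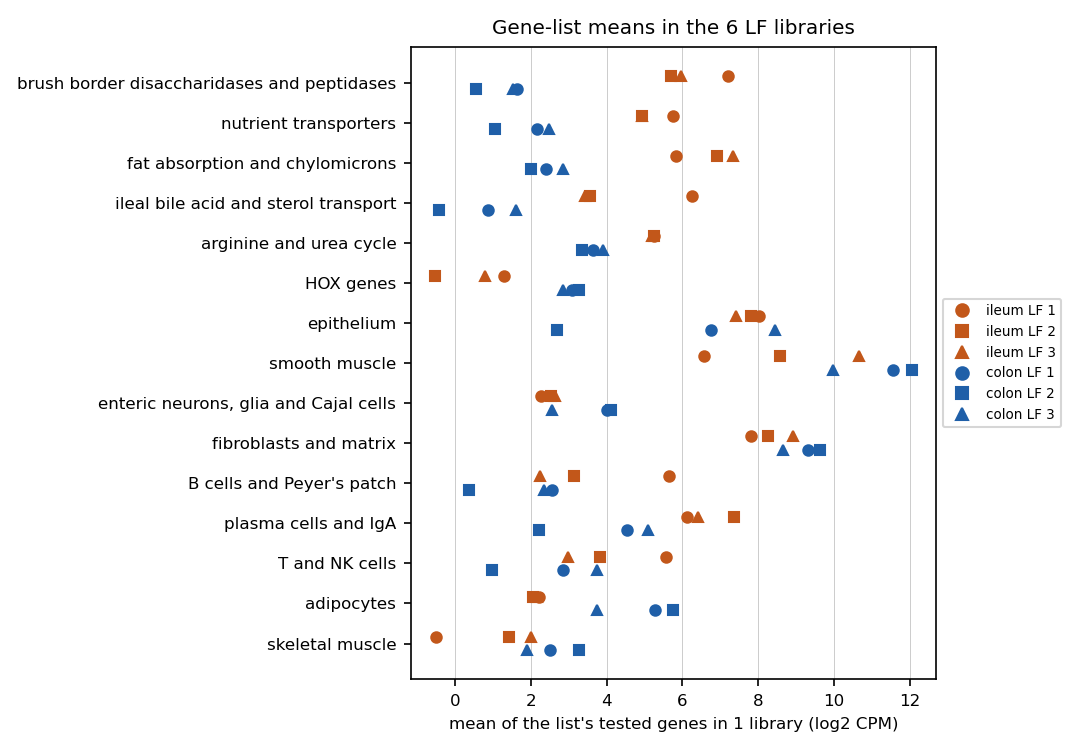
Mean log2 CPM of the tested genes of 15 gene lists (rows) in each of the 6 low-fibre libraries; orange marks are ileum, blue marks colon, and the shape gives the library number. Colon LF 2 (blue square) lies lowest on the epithelium row at 2.68 and highest on the smooth muscle row at 12.06, while ileum LF 1 (orange circle) lies highest on the B cell row at 5.64.

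Of the label-check genes, the colonic ones were not uniformly colonic either. HOXD13, a posterior HOX gene, was at 0.0478, 0.158 and 0.0693 CPM in ileum and 21.6, 20.1 and 17.5 CPM in colon, so every colon library carried it. SLC26A3, the colonic chloride and bicarbonate exchanger, was at 291, 66.9 and 4.30 CPM in ileum and 299.7, 27.8 and 1050.0 CPM in colon, and the tissues overlapped. The water channel AQP8 was higher in ileum (81.6, 88.3 and 81.4 CPM) than in colon (13.8, 1.21 and 8.0 CPM), a difference of -3.44 ± 1.22 that was not called (adjusted p = 0.133). INSL5, a hormone of distal colonic endocrine cells, was at 0.860, 0 and 0 CPM in ileum and 1.28, 0 and 32.6 CPM in colon, high in colon LF 3 alone. APOA4 and sucrase-isomaltase (SI), small intestinal markers, were above every colon library in each ileum library. CA1 was not matched in the table.

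Colon and ileum on the low-fibre diet differed at 338 of 15675 genes (2.16%), 69 higher in colon (0.44%) and 269 lower (1.72%). Those lower in colon included 10 of 18 brush border enzymes, 12 of 24 nutrient transporters, the urea cycle enzymes CPS1 and OTC and the chemokine CCL25. Those higher in colon included 7 of 29 HOX genes and the membrane mucin MUC12. The median difference over all genes tested was -0.02, and 3429 genes (21.9%) had an unadjusted p under 0.05. Of all genes tested, 7604 differences were positive and 8070 negative. All 69 genes called higher and 266 of the 269 called lower had 3 colon and 3 ileum values that did not overlap, as had 8.38% of all genes tested in the higher and 11.7% in the lower direction (20.1% in all). Of the 338 genes, 287 have a symbol and 51 only a locus number. Among the 338 were 11 genes at 0 counts in all colon libraries and 5 at 0 in all ileum libraries.

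The number of calls depended on single libraries. Without colon LF 2 it was 148 of 15863 genes (0.933%), 36 higher (0.227%) and 112 lower (0.706%), and 145 of these were among the 338. Without ileum LF 1 it was 229 (1.44%), 33 higher (0.208%) and 196 lower (1.24%). It was 200 without ileum LF 2 (22 higher, 178 lower), 442 without ileum LF 3 (97 and 345), 158 without colon LF 1 (47 and 111) and 268 without colon LF 3 (73 and 195). With ileum LF 1 as the only LF ileum library it was 249 (1.53%), 15 higher (0.0924%) and 234 lower (1.44%), of which 169 were among the 338. In every one of the 6 single omissions, 17 genes remained called higher and 93 lower. With the epithelial marker mean of each library as a covariate, a fit added after seeing the data, 519 genes were called (3.31%), 179 higher (1.14%) and 340 lower (2.17%), of which 291 were among the 338. The epithelial mean was lowest in a colon library, and its part in the single results was not tested beyond that fit.

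**Figure D2:**
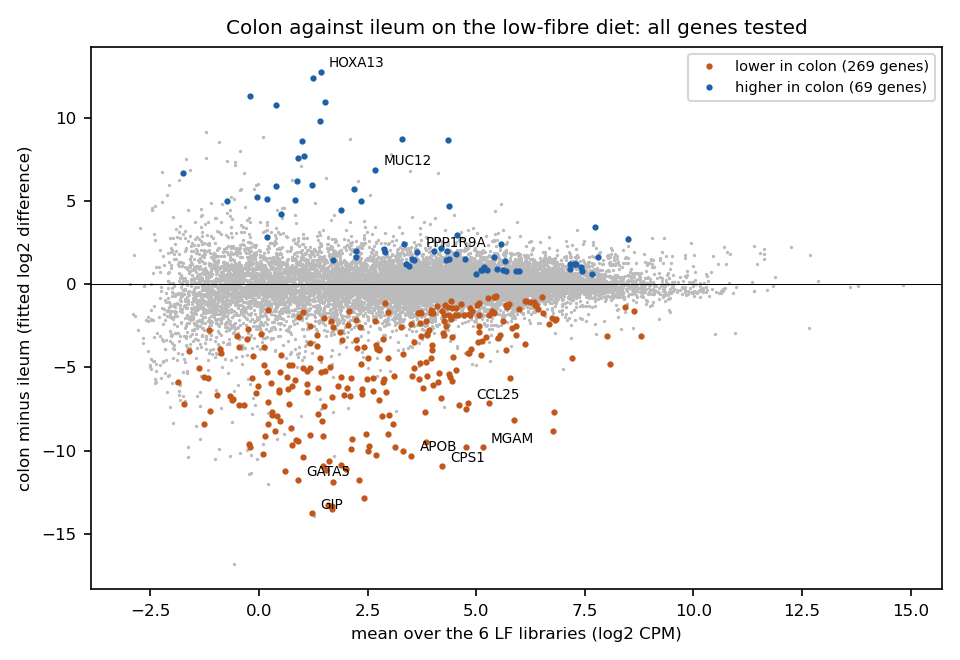
Fitted log2 difference, colon minus ileum, against the mean log2 CPM over the 6 low-fibre libraries for every gene tested; grey points were not called, orange points are the 269 genes called lower in colon and blue points the 69 called higher. HOXA13 and MUC12 lie far above 0 and CPS1, MGAM and GIP far below; the genes at either extreme were near 0 counts in one tissue.

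Posterior HOX genes of the A and D clusters were higher in colon, and they were on in all 3 colon libraries, including the one with little epithelium. HOX genes are homeobox transcription factors arranged in 4 clusters, and members at the 5′ end of a cluster (high numbers) are used in posterior parts of the body. Of 29 HOX genes tested, 7 were called higher in colon (background 0.44% of all genes tested) and 0 lower, with a median difference of 1.25 against -0.02 over all genes. The count was 6 without colon LF 2, 8 without ileum LF 1, 8 with the epithelial covariate and 4 with ileum LF 1 as the only ileum library. HOXA13 (gene ID 100359352, chromosome 18, 45373340 to 45379046 in Sscrofa11.1) had 0 counts in every ileum library and was at 58.4, 50.3 and 60.0 CPM in colon, at least 899-fold higher (adjusted p = 4.9e-07). This bound sets 3 counts over the whole ileum group, as do the other bounds below for their group at 0. HOXA11 (gene ID 100521236, chromosome 18, 45388523 to 45392190) also had 0 counts in ileum and was at 39.6, 52.1 and 40.1 CPM in colon, at least 703-fold higher (adjusted p = 2.93e-07). HOXD11 was at 0 in ileum and 16.4, 18.5 and 7.51 CPM in colon, at least 226-fold higher (adjusted p = 0.000449). HOXD10 had 2 counts in ileum, all in LF 3, and was at 51.4, 64.4 and 23.3 CPM in colon, with a ratio of mean CPM of 1113 (95% counting interval 308 to 9189) (adjusted p = 2.52e-05). HOXD13 differed by 7.71 ± 1.30 (adjusted p = 0.0024). HOXD9 was at 1.19, 0.158 and 1.18 CPM in ileum and 19.5, 29.5 and 9.08 CPM in colon (4.48 ± 0.92, adjusted p = 0.0111), a call lost without ileum LF 2 (adjusted p = 0.0577).

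Some posterior HOX genes were also on in ileum LF 1. HOXA10 was at 2.96, 0 and 0 CPM in ileum and 54.5, 60.6 and 53.1 CPM in colon (5.71 ± 1.46, adjusted p = 0.0476), and its call was lost without ileum LF 2, ileum LF 3 or any 1 colon library (adjusted p up to 0.151), while its adjusted p was 0.0132 without ileum LF 1. HOXA9 was at 16.4, 0 and 0.139 CPM in ileum and 34.5, 27.2 and 32.8 CPM in colon, and its difference of 2.49 ± 1.57 was not called (adjusted p = 0.338). HOXC10 had 27 counts in ileum LF 1 and 0 in each of the other 5 libraries, too few to be tested. HOXD8 was at 9.31, 2.37 and 3.26 CPM in ileum and 39.3, 51.9 and 29.7 CPM in colon (3.0 ± 0.79, adjusted p = 0.0528), just above the threshold, and was called without ileum LF 1 (adjusted p = 0.0433). HOXB13 was at 0.0955, 0 and 0 CPM in ileum and 11, 0.537 and 56.2 CPM in colon, lowest in colon LF 2, and was not called (adjusted p = 0.0784). Per gene length, HOXA11 stood highest of the 7 called HOX genes in every colon library. The deposited FPKM (fragments scaled by gene length and library size) of HOXA11 were 17.1, 21.0 and 17.8 and of HOXA13 11.3, 9.12 and 11.97, against 5.48 to 6.56 for HOXD13. 

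**Figure D3:**
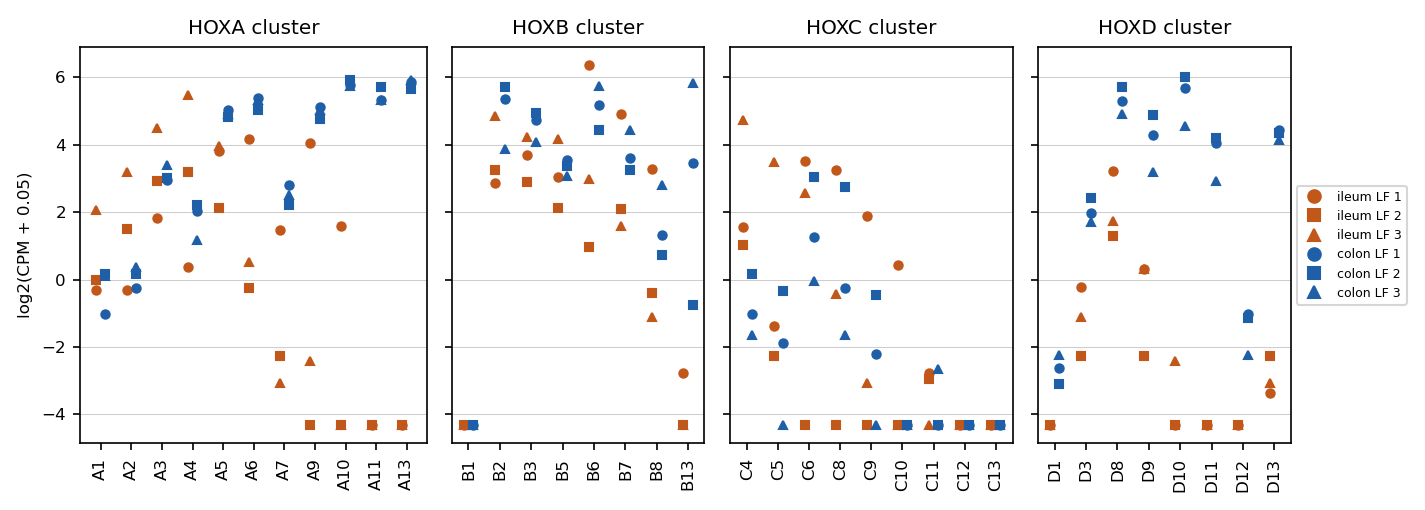
Log2(CPM + 0.05) of the HOX genes of the 4 clusters, in the order of their numbers, in each low-fibre library; orange is ileum, blue is colon, shapes give the library number, and genes at 0 counts lie on the bottom line. In the HOXA cluster the 3 ileum libraries are at 0 for A11 and A13 while colon is at 39.6 to 60.0 CPM, and for A6 to A10 ileum LF 1 lies above ileum LF 2 and 3.

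Among 27 regional transcription factors, 4 were called lower in colon (background 1.72%) and 0 higher (2 without colon LF 2, 4 without ileum LF 1, 3 with ileum LF 1 alone). With the epithelial covariate 8 were called lower and 2 higher. GATA5 (gene ID 100158102, chromosome 17, 61824891 to 61834742), a zinc finger factor of the gut endoderm, was at 37.9, 25.9 and 20.5 CPM in ileum and had 0 counts in every colon library, at least 480.0-fold lower (adjusted p = 0.000156). This held in all 3 ileum libraries, whichever positional markers they carried. GATA4 was called lower in colon (adjusted p = 0.035) on the strength of ileum LF 2 and 3, with 0.0558, 0 and 0.162 CPM in colon. Its call was lost without ileum LF 2 or any 1 colon library (adjusted p up to 0.174), and the adjusted p with ileum LF 1 alone was 0.574. MAF, a leucine zipper factor, fell from 51.0, 23.8 and 25.4 CPM in ileum to 11.11, 11.2 and 10.1 CPM in colon (-1.63 ± 0.32, adjusted p = 0.00789), and TBX3, a T-box repressor, from 134, 46.5 and 53.2 to 24.9, 22.6 and 26.8 CPM (-1.65 ± 0.36, adjusted p = 0.0164). Both were highest in ileum LF 1. The MAF call was lost without that library (adjusted p = 0.0568), and the TBX3 call without it or any 1 colon library (adjusted p up to 0.127). PDX1 (0, 0 and 0.324 CPM in colon, adjusted p = 0.0519) and ONECUT2 (0.143, 81.6 and 48.7 and 0, 0.201 and 0 CPM, adjusted p = 0.0645) missed the threshold, with ileum LF 1 near the colon's level for both, and were called without that library (adjusted p = 0.0257 and 0.0401).

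Brush border enzymes had the lowest median difference of the 36 gene lists examined. Of 18 disaccharidases and peptidases tested, 10 were called lower in colon (background 1.72%), 0 higher, and all 18 differences were negative, with a median of -7.03 against -0.02 over all genes. The count was 6 without colon LF 2 and 11 both without ileum LF 1 and with ileum LF 1 alone, and 12 with the epithelial covariate. Maltase-glucoamylase (MGAM, gene ID 102160115, chromosome 18, 7871529 to 7997137), which splits starch fragments, was at 1865, 548 and 852 CPM in ileum and 1.62, 0.940 and 1.08 CPM in colon (-9.80 ± 1.32, adjusted p = 0.000449). SI was at 1115, 161 and 239.9 CPM in ileum and 5.08, 0.470 and 2.76 CPM in colon (-7.50 ± 1.27, adjusted p = 0.00261). Aminopeptidase N (ANPEP) was at 3995, 1063 and 771 CPM in ileum and 12.1, 3.42 and 12.9 CPM in colon (-7.68 ± 1.05, adjusted p = 0.000461). The peptidases MME (-7.88 ± 1.40), DPP4 (-3.48 ± 0.62) and MEP1B (-6.03 ± 1.08) were called too, with adjusted p of 0.00371, 0.00396 and 0.00396. In all of these ileum LF 1 was the highest library, yet ileum LF 2 and 3 were each above every colon library.

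Other peptidases split the ileum libraries further. MEP1A, a meprin subunit, was at 896, 9.65 and 41.0 CPM in ileum and had 1 count in colon, a ratio of 16180.0 (95% counting interval 2904 to 639100.0) (adjusted p = 0.0127), and its call was lost without any 1 colon library (adjusted p up to 0.0837). ENPEP, an aminopeptidase, was at 1723, 129.7 and 149 CPM in ileum and 5.75, 4.50 and 3.95 CPM in colon, and NAALADL1, another brush border peptidase, at 1597, 56.2 and 66.3 and 4.47, 1.14 and 5.51 CPM. Their calls (adjusted p = 0.00798 and 0.00798), and that of the gamma-glutamyl transferase GGT1 (-3.45 ± 0.69, adjusted p = 0.00947), were lost without colon LF 1 or colon LF 2 (adjusted p up to 0.0594, 0.0589 and 0.0617). Carboxypeptidase O (CPO) was at 254, 0 and 0 CPM in ileum and 2.35, 0.201 and 11.2 CPM in colon, and was not called (adjusted p = 0.321). Lactase (LCT), trehalase (TREH) and enteropeptidase (TMPRSS15, the duodenal activator of trypsin) showed the opposite split. LCT was at 2.01, 55.9 and 131 CPM, TREH at 0.573, 79.1 and 69.3 CPM and TMPRSS15 at 0.0955, 207 and 13.7 CPM in ileum, with colon at 0.614 CPM or less for each. None of these was called with all 6 libraries (adjusted p = 0.0715, 0.0844 and 0.0677), and TMPRSS15 was called without ileum LF 1 (adjusted p = 0.0389).

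Nutrient transporters followed the same direction. Of 24 tested, 12 were called lower in colon and 0 higher (9 without colon LF 2, 12 without ileum LF 1, 8 with ileum LF 1 alone, and 11 lower and 1 higher with the epithelial covariate), with a median of -2.88. The peptide transporter SLC15A1 was at 248, 59.6 and 146 CPM in ileum and 0.335, 0 and 0.162 CPM in colon (-9.71 ± 1.29, adjusted p = 0.000449). SLC6A19, the neutral amino acid transporter, was at 213, 29.5 and 63.5 CPM in ileum and had 1 count in colon, a ratio of 5238 (95% counting interval 940.1 to 206900.0) (adjusted p = 0.000449). The nucleoside transporters SLC28A1 (-8.21 ± 1.24, adjusted p = 0.000939) and SLC28A2 (-6.32 ± 0.90, adjusted p = 0.000565) and the cystine and basic amino acid transporter subunits SLC7A9 (-6.98 ± 1.06, adjusted p = 0.000946) and SLC7A7 (-3.26 ± 0.56, adjusted p = 0.00293) fell as well. SLC2A2, the basolateral glucose and fructose carrier, was at 29.7, 11.9 and 15.9 CPM in ileum and at 0 counts in colon, at least 327-fold lower (adjusted p = 0.00149). The calls of these 7 genes held in every single omission.

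The sodium and glucose cotransporter SLC5A1 was not silent in colon. It was at 2025, 496 and 541 CPM in ileum and 35.0, 5.44 and 98.9 CPM in colon (-4.46 ± 0.87, adjusted p = 0.00831), lowest in colon LF 2, and its call was lost without colon LF 1 (adjusted p = 0.0645). The fructose carrier SLC2A5 was at 30.6, 105 and 68.2 CPM in ileum and 1.28, 2.82 and 0.324 CPM in colon (-5.54 ± 1.11, adjusted p = 0.00993), a call lost without colon LF 1 or colon LF 3 (adjusted p up to 0.0724). The thiamine carrier SLC19A3, the calcium channel TRPV6 and the proton-coupled amino acid carrier SLC36A1 were called at adjusted p of 0.0368, 0.0406 and 0.042. They were lower in ileum LF 1 than in ileum LF 2 and 3, and each call was lost without ileum LF 2, ileum LF 3, colon LF 1 or colon LF 2, those of SLC19A3 and SLC36A1 also without colon LF 3 (adjusted p up to 0.193, 0.186 and 0.261).

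Enzymes that handle fructose and make glucose fell with the carriers. Of 9 tested, 4 were called lower and 0 higher (3 without colon LF 2, 4 without ileum LF 1, 2 with ileum LF 1 alone). Ketohexokinase (KHK), the first enzyme of fructose use, fell from 152, 206 and 163 CPM in ileum to 19.4, 23.4 and 20.6 CPM in colon (-3.04 ± 0.48, adjusted p = 0.00127) and the triokinase TKFC from 94.4, 188 and 148 to 18.3, 7.99 and 25.8 CPM (-3.04 ± 0.56, adjusted p = 0.00535). Glucose 6-phosphatase (G6PC) was at 16.8, 44.9 and 31.2 CPM in ileum and 0.112, 0 and 0.270 CPM in colon (-7.78 ± 1.09, adjusted p = 0.000527). Fructose bisphosphatase FBP1 was called at -3.58 ± 0.73 (adjusted p = 0.0107), and the call was lost without ileum LF 2, colon LF 1 or colon LF 2 (adjusted p up to 0.0855). Pyruvate carboxylase (PC) pointed the other way at 19.1, 29.0 and 11.7 CPM in ileum and 87.6, 98.9 and 32.4 CPM in colon, without a call (1.87 ± 0.61, adjusted p = 0.112).

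**Figure D4:**
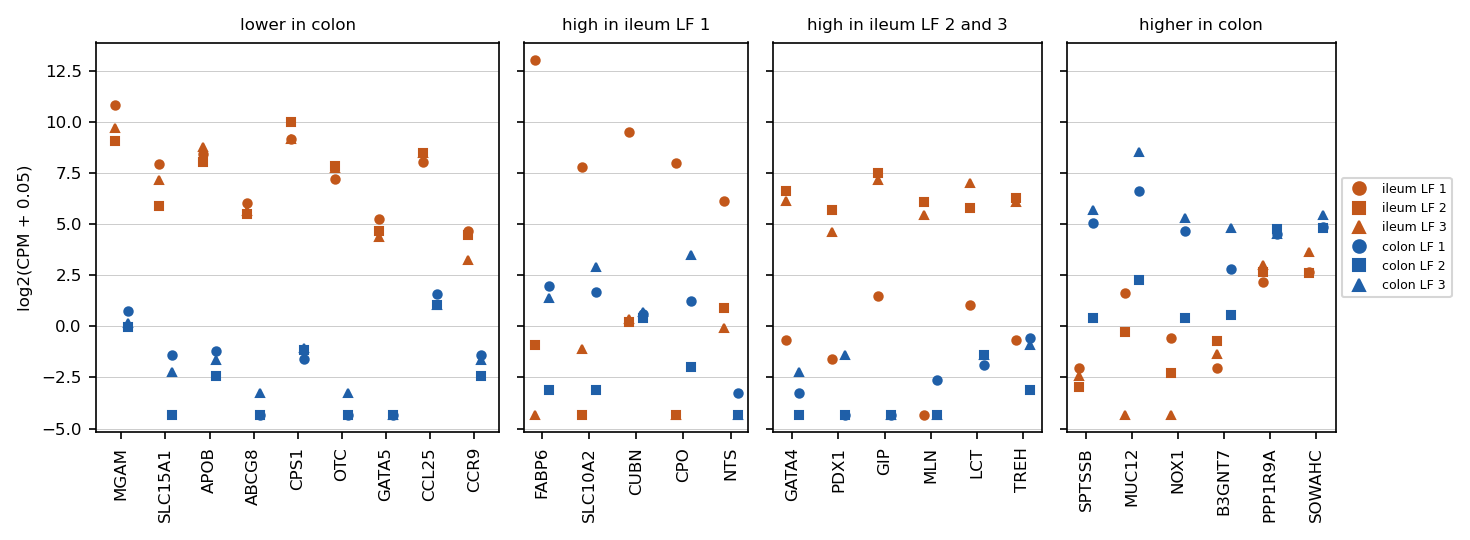
Log2(CPM + 0.05) of 26 genes in the 6 low-fibre libraries, in 4 panels: genes called lower in colon, genes high in ileum LF 1, genes high in ileum LF 2 and 3, and genes called higher in colon; orange is ileum, blue is colon, shapes give the library number, and the bottom line is 0 counts. The panels named for single ileum libraries were assembled after the values were seen; FABP6 spans 0 to 8419 CPM within ileum, while MGAM, CPS1 and GATA5 lie apart in every library.

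Chylomicron and fat handling genes were lower in colon. Of 19 tested, 9 were called lower and 0 higher (4 without colon LF 2, 8 without ileum LF 1, 4 with ileum LF 1 alone), with a median of -3.19. Apolipoprotein B (APOB), the structural protein of chylomicrons, was at 343, 262 and 445 CPM in ileum and 0.391, 0.134 and 0.270 CPM in colon (-10.30 ± 1.76, adjusted p = 0.00275). The transfer protein that loads it with lipid, MTTP, was at 223, 219.5 and 331 and 0.112, 0.805 and 0 CPM (-9.77 ± 1.59, adjusted p = 0.00171). CREB3L3, a membrane-bound factor that drives apolipoprotein genes, was at 74.4, 245 and 170.4 and 0.168, 0.336 and 0.432 CPM (-8.99 ± 1.29, adjusted p = 0.000609), and the fatty acid acyl-CoA synthetase SLC27A2 at 16, 73.8 and 52.1 and 0.112, 0 and 0.108 CPM (-9.12 ± 1.22, adjusted p = 0.000449). The secreted phospholipase family gene PLA2G12B fell from 35.6, 43.0 and 45.6 to 0.279, 0.134 and 0.703 CPM (-6.74 ± 0.78, adjusted p = 0.000156).

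The small apolipoproteins were unequal among the ileum libraries. APOA4 was at 14.9, 153 and 917 CPM in ileum and 0.112, 0.0671 and 0.649 CPM in colon, and APOC3 at 7.26, 95.3 and 600.2 and 0, 0.134 and 0.162 CPM, both lowest in ileum LF 1 among the ileum libraries. APOA1 was at 521, 1539 and 2950.0 CPM in ileum and 81.3, 75.5 and 26.6 CPM in colon, with the same order of ileum libraries. Their calls (adjusted p = 0.035, 0.0159 and 0.035) were each lost without any 1 colon library (adjusted p up to 0.174, 0.1 and 0.152), those of APOA4 and APOA1 also without ileum LF 2 or 3. The call of the fatty acid binding protein FABP2 was lost without any 1 colon library too. FABP2 was at 52.8, 46.9 and 137 CPM in ileum and at 0 counts in colon, at least 1348-fold lower (adjusted p = 0.0268, up to 0.114 in the omissions). DGAT1, which makes triglyceride, was called at -2.23 ± 0.55 (adjusted p = 0.0394) and lost in every single omission (adjusted p up to 0.215). DGAT2 and the fatty acid receptor CD36 pointed up in colon without a call. DGAT2 was at 8.60, 17.9 and 39.3 CPM in ileum and 93.7, 267 and 48.9 CPM in colon, and CD36 at 16.8, 34.8 and 27.9 and 111, 276 and 38.1 CPM, both highest in colon LF 2. The adipocyte list was highest in colon LF 2 as well, at a mean of 5.74 log2 CPM against 5.29 and 3.74 in colon LF 1 and 3 and 2.05 to 2.23 in ileum, and its part in these values was not tested.

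Vitamin A and cobalamin genes gave 2 calls among 10 tested, both lower in colon (0 without colon LF 2, 1 without ileum LF 1, 0 with ileum LF 1 alone). The cellular retinol binding protein RBP2 was at 19.1, 720.3 and 621 CPM in ileum and 0.112, 0.738 and 0.432 CPM in colon (-10.05 ± 2.15, adjusted p = 0.0159), lost without any 1 colon library (adjusted p up to 0.101). AMN, the partner of cubilin in cobalamin uptake, was at 16.2, 11.2 and 6.03 and 1.34, 0 and 1.14 CPM (adjusted p = 0.0411), lost in all omissions but that of ileum LF 3 (adjusted p up to 0.115). CUBN itself was at 1.45, 1.27 and 1.57 CPM in colon, near that of ileum LF 2 and 3, and was not called (adjusted p = 0.13).

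Bile acid and sterol transport genes split into a part shared by all ileum libraries and a part seen in ileum LF 1. Of 13 tested, 6 were called lower in colon and 0 higher, and the count was 6 as well without colon LF 2, without ileum LF 1 and with ileum LF 1 alone. NPC1L1, the cholesterol uptake protein, was at 186, 59.5 and 85.5 CPM in ileum and 0.168, 0.0671 and 0.379 CPM in colon (-8.98 ± 1.36, adjusted p = 0.000946). The sterol exporters that pair with each other, ABCG5 and ABCG8, were at 42.0, 21.4 and 28.1 and 65.0, 46.0 and 50.9 CPM in ileum, and ABCG8 had 1 count in colon, a ratio of 2768 (95% counting interval 497 to 109300.0) (adjusted p = 0.00339 and 0.00122). SLC51B, a subunit of the basolateral bile acid exporter, fell from 242, 89.2 and 63.8 to 5.30, 5.84 and 11.7 CPM (-4.11 ± 0.64, adjusted p = 0.00125), and the conjugate pump ABCC2 from 70.2, 88.5 and 61.6 to 4.30, 3.29 and 2.38 CPM (-4.46 ± 0.80, adjusted p = 0.00396). NR0B2, a nuclear receptor induced by bile acids, was at 2.96, 7.83 and 7.49 CPM in ileum and 0 in colon, at least 104-fold lower (adjusted p = 0.00456).

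The genes of terminal ileal bile acid recovery were not called. FABP6 was at 3.91, 0.0671 and 2.54 CPM in colon (adjusted p = 0.153), so ileum LF 2 and 3 were below colon LF 1 and 3. SLC10A2 was at 3.13, 0.0671 and 7.35 CPM in colon (adjusted p = 0.317), and the bile acid receptor NR1H4 was at 229, 9.89 and 9.85 CPM in ileum and 4.13, 0.201 and 17.8 CPM in colon (adjusted p = 0.168). Without ileum LF 1 the fitted differences of FABP6, SLC10A2 and CUBN turned positive. FGF19, the hormone that this receptor induces, had 234 counts in ileum LF 1 and 0 in ileum LF 2 and 3. In deposited FPKM, FABP6 stood at 17170.0 in ileum LF 1, against 91.3 for FABP2 and 50.4 for FABP1 in the same library.

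Enzymes that make ornithine and citrulline, among them the target of NCG, were lower in colon. Of 21 arginine and urea cycle genes, 4 were called lower and 0 higher (3 without colon LF 2, 4 without ileum LF 1, 3 with ileum LF 1 alone), with a median of -0.91. CPS1 (gene ID 100157716, chromosome 15, 113210038 to 113339086), the enzyme that NCG activates, was at 571, 1050.0 and 579.7 CPM in ileum and 0.279, 0.403 and 0.432 CPM in colon (-10.92 ± 1.71, adjusted p = 0.00127). Ornithine transcarbamylase (OTC) was at 147, 235 and 218 CPM in ileum and had 1 count in colon, a ratio of 10260.0 (95% counting interval 1842 to 405300.0) (adjusted p = 0.000449). Ornithine aminotransferase (OAT), which makes ornithine from glutamate-derived semialdehyde, fell from 1289, 1604 and 1015 to 162, 160.4 and 133 CPM (-3.10 ± 0.44, adjusted p = 0.000609). The calls of these 3 genes held in every single omission. The mitochondrial ornithine carrier SLC25A15 was called at -2.49 ± 0.48 (adjusted p = 0.00706), lost without colon LF 1 or colon LF 2 (adjusted p up to 0.0648). NAGS, which makes the natural activator N-acetylglutamate, was at 20.1, 25.6 and 17.5 CPM in ileum and 2.40, 0.403 and 7.51 CPM in colon and was not called (-2.60 ± 0.79, adjusted p = 0.0941), except without colon LF 3 (adjusted p = 0.0376). Argininosuccinate synthase (ASS1), which uses citrulline, was at 297, 7.99 and 13.4 CPM in ileum and 44.7, 31.9 and 46.3 CPM in colon, so colon lay between the ileum libraries (adjusted p = 0.451). SDSL, a serine dehydratase family gene, was at 8.41, 54.4 and 47.0 CPM in ileum and had 1 count in colon, a ratio of 1877 (95% counting interval 337 to 74150.0) (adjusted p = 0.000724).

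Xenobiotic enzymes were called lower at 4 of 24 genes and higher at 0 (2 without colon LF 2, 5 both without ileum LF 1 and with ileum LF 1 alone), and 23 of 24 differences were negative. The cytochromes CYP3A46 (70.3, 121 and 118 CPM in ileum, 3.74, 6.91 and 4.27 CPM in colon) and CYP3A29 (298, 350.1 and 569 and 9.33, 4.23 and 10.5 CPM) had differences of -4.38 ± 0.64 and -5.66 ± 1.06 (adjusted p = 0.000737 and 0.00601). The glucuronosyltransferase UGT2B31 differed by -6.79 ± 1.08 (adjusted p = 0.00144) and CYP2C42 by -6.62 ± 1.32 (adjusted p = 0.00933). The CYP3A29 call was lost without colon LF 2 (adjusted p = 0.0552) and the CYP2C42 call without colon LF 1 or colon LF 2 (adjusted p up to 0.0703). Members of these families are similar in sequence, so how their reads were shared between copies is uncertain.

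Gut hormones differed in ways that followed the ileum libraries. Of 24 endocrine cell genes, 3 were called lower in colon and 0 higher (0 without colon LF 2, 5 without ileum LF 1, 1 with ileum LF 1 alone). GIP, an incretin of proximal endocrine cells, was at 2.77, 186 and 144 CPM in ileum and 0 in colon, at least 1893-fold lower (adjusted p = 0.0344). Cholecystokinin (CCK) was at 5.06, 73.6 and 63.7 CPM in ileum and 0.838, 0.470 and 0.108 CPM in colon (-6.63 ± 1.63, adjusted p = 0.0376). Neurotensin (NTS), a hormone of distal endocrine cells, was at 70.1, 1.82 and 0.901 CPM in ileum and had 1 count in colon, a ratio of 1246 (95% counting interval 224 to 49200.0) (adjusted p = 0.0498). All 3 calls were lost without any 1 colon library and without ileum LF 2 (adjusted p up to 0.138, 0.172 and 0.274), the CCK call also without ileum LF 3 and the NTS call also without ileum LF 1. Secretin (SCT, 0.0955, 20.8 and 5.13 CPM in ileum), MLN and ghrelin (GHRL, 0, 16.2 and 14.3 CPM) were near 0 in colon and were not called (adjusted p = 0.0597, 0.0644 and 0.0703), except without ileum LF 1 (adjusted p = 0.037, 0.0318 and 0.037). Somatostatin (SST) was at 36.5, 117 and 82.1 CPM in ileum and 6.20, 0.805 and 19.0 CPM in colon (adjusted p = 0.123). The serotonin transporter SLC6A4 was lower in colon in every library, at 73.4, 38.6 and 53.1 and 1.17, 0.470 and 1.14 CPM (-5.87 ± 0.78, adjusted p = 0.000449), and so was the potassium channel KCNJ3 at 5.87, 16.3 and 12.3 and 0.0558, 0.336 and 0.108 CPM (-6.09 ± 0.76, adjusted p = 0.000325).

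The chemokine pair that brings lymphocytes to the small intestine was lower in colon. CCL25, made by enterocytes, was at 266, 357 and 360.5 CPM in ileum and 2.96, 2.01 and 2.05 CPM in colon (-7.12 ± 0.88, adjusted p = 0.000325). Its receptor CCR9, carried by lymphocytes, was at 25.8, 22.3 and 9.64 CPM in ileum and 0.335, 0.134 and 0.270 CPM in colon (-6.22 ± 0.76, adjusted p = 0.000315). Both calls held in every single omission, and they were the 2 calls among 15 plasma cell and IgA genes. All 15 differences of that list were negative, as were 20 of 20 for T and NK cell genes and 23 of 24 for B cell and follicle genes. Over all genes tested 8070 of 15675 were negative. Among the T and NK cell and the B cell genes, edgeR and voom called 0 members. At an unadjusted p under 0.05 stood 9 T and NK cell and 12 B cell genes (21.9% of all genes tested did). DESeq2 called 1 and 2 of them, against 1286 of 15675 over all genes. The list means in ileum LF 1, 2 and 3 were 6.13, 7.35 and 6.42 log2 CPM for plasma cells and 5.57, 3.82 and 2.97 for T and NK cells. In colon LF 1, 2 and 3 they were 4.54, 2.21 and 5.08 for plasma cells and 2.85, 0.99 and 3.76 for T and NK cells, lowest in colon LF 2 in both. For B cell and follicle genes the means were 5.64, 3.13 and 2.24 in ileum and 2.55, 0.36 and 2.36 in colon. Ileum LF 3 was thus below colon LF 1 and 3 for B cell genes, and below colon LF 3 for T and NK cell genes. Genes of a list share the same libraries, so their signs are not independent. With ileum LF 1 alone 1 T and NK cell gene and 2 macrophage genes were called lower. With all 6 libraries 1 of 16 macrophage genes was called, ITGAM, at 128, 21.5 and 22.0 CPM in ileum and 9.72, 11.3 and 8.87 CPM in colon (-2.52 ± 0.65, adjusted p = 0.0481). Its call was lost without ileum LF 1 or any 1 colon library (adjusted p up to 0.347). ITGAM was highest in ileum LF 1, the library with the highest B cell and T and NK cell means, whose part in these values was not tested. TRIM31, an E3 ubiquitin ligase of the gut, shared the smallest adjusted p of the genes lower in colon with GATA5 and PLA2G12B (143, 121 and 99.8 and 0.391, 0 and 1.03 CPM, -7.93 ± 0.91, adjusted p = 0.000156).

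Outside HOX genes, 7 genes named for a large difference in favour of colon had colon LF 2, the library with little epithelium, as their lowest colon library, while MYH1, given further on, was highest there. SPTSSB (gene ID 100623291, chromosome 13, 101023238 to 101059917), a small subunit of serine palmitoyltransferase, was at 0.191, 0.0791 and 0.139 CPM in ileum and 33.7, 1.27 and 51.6 CPM in colon (7.58 ± 1.32, adjusted p = 0.00328). The membrane mucin MUC12 was at 3.06, 0.791 and 0 and 97.6, 4.76 and 376 CPM (6.90 ± 1.60, adjusted p = 0.0272). NOX1, a colonic NADPH oxidase, was at 0.621, 0.158 and 0 and 25.7, 1.27 and 39.9 CPM (6.24 ± 1.49, adjusted p = 0.0336). B3GNT7, a glycosyltransferase, was at 0.191, 0.554 and 0.347 and 7.09, 1.41 and 28.2 CPM (5.08 ± 1.15, adjusted p = 0.0238), and UCP3, a mitochondrial carrier, at 0.669, 2.45 and 0.416 and 31.9, 7.05 and 70.7 CPM (4.98 ± 1.06, adjusted p = 0.0158).

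The phosphatase inhibitor PPP1R14C (5.97 ± 1.10, adjusted p = 0.00522) and NXPE2 (5.90 ± 1.16, adjusted p = 0.00834) rose as well. In each of these 7 genes even colon LF 2 was above every ileum library, so the tissues did not overlap. Without colon LF 2 their adjusted p were between 0.00132 (SPTSSB) and 0.0187 (NOX1). With ileum LF 1 as the only LF ileum library none of the 7 was called (adjusted p from 0.0578 for PPP1R14C to 0.243 for NOX1). The MUC12, NOX1, B3GNT7, UCP3 and NXPE2 calls were lost without some single library, MUC12 without ileum LF 2, ileum LF 3 or colon LF 3 (adjusted p up to 0.13) and NOX1 in all omissions but that of colon LF 2 (up to 0.137). B3GNT7 was lost without any 1 ileum library or colon LF 3 (up to 0.105), UCP3 without ileum LF 1 or 3 (up to 0.0733) and NXPE2 without ileum LF 1 (0.0534). SPTSSB and PPP1R14C were called in every single omission.

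Some of the smallest adjusted p among genes higher in colon belonged to genes of moderate change. PPP1R9A (neurabin, an actin-binding scaffold) was at 4.54, 6.25 and 8.11 CPM in ileum and 22.7, 27.7 and 23.4 CPM in colon (1.97 ± 0.26, adjusted p = 0.000449). SOWAHC, an ankyrin repeat gene, was at 6.4, 6.17 and 12.3 and 29.0, 28.4 and 43.4 CPM (2.02 ± 0.27, adjusted p = 0.000449). Neither was low in colon LF 2, and both calls held in every single omission. MYH1, a skeletal muscle myosin, was at 0.191, 0 and 0.277 CPM in ileum and 4.52, 10.9 and 2.33 CPM in colon (adjusted p = 0.0498) and was lost in every single omission (up to 0.187). The skeletal muscle marker CKM went from 5.45, 72.4 and 311 CPM in ileum LF 1, 2 and 3 to 529, 931 and 253 CPM in colon LF 1, 2 and 3. The skeletal muscle list did not share 1 direction. Of its 7 genes tested, 4 differences were positive and 3 negative, with 1 called higher and 0 lower. Its median was 2.12, and 0.32 without colon LF 2 and -0.60 with the epithelial covariate.

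Genes for the short-chain fatty acids that fibre yields gave 1 lower call and 0 higher among 17 tested (0 calls without colon LF 2, 1 lower without ileum LF 1, 0 with ileum LF 1 alone). The lower one was the sodium-coupled carrier SLC5A8, at 137, 390.2 and 212 CPM in ileum and 7.82, 0 and 7.30 CPM in colon (-5.60 ± 1.34, adjusted p = 0.0336), lost without ileum LF 2 or any 1 colon library (up to 0.11). The proton-coupled carrier SLC16A1, the main route for butyrate, was at 88.4, 230.5 and 207 CPM in ileum and 486, 277 and 1079 CPM in colon, with no overlap but no call (1.81 ± 0.56, adjusted p = 0.097). Its chaperone basigin (BSG) was at 166, 236 and 230.1 and 405, 202 and 918 CPM, with colon LF 2 inside the ileum range (1.27 ± 0.53, adjusted p = 0.183). In the fit with the epithelial marker mean as a covariate, SLC16A1 (2.29, adjusted p = 0.000918) and BSG (1.78, adjusted p = 0.000605) were called higher in colon, and 4 genes of the list were called higher and 1 lower.

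Salt and water transport gave 1 call among 30 genes tested (0 without colon LF 2 and with ileum LF 1 alone, 1 without ileum LF 1, and 3 lower and 1 higher with the epithelial covariate), the glycerol and water channel AQP3. It was lower in colon at 32.8, 61.0 and 38.6 and 6.37, 1.95 and 11.5 CPM (-2.74 ± 0.66, adjusted p = 0.0341), a call lost without ileum LF 2, colon LF 1 or colon LF 2 (up to 0.16). The sodium and proton exchanger SLC9A3 was at 30.9, 26.7 and 31.1 CPM in ileum and 68.6, 3.89 and 218 CPM in colon. It was not called (1.71 ± 1.11, adjusted p = 0.35), while the fit with the epithelial covariate gave 2.35 (adjusted p = 0.00708). Goblet cell and secreted mucus genes gave 0 calls among 19 tested with edgeR and 0 with voom. At an unadjusted p under 0.05 stood 5 of them (21.9% of all genes tested did), and DESeq2 called 2 (1286 of 15675 over all genes). With the epithelial covariate edgeR called 3 higher and 1 lower. The smallest adjusted p was at C1GALT1, an O-glycan synthase (1.06 ± 0.29, adjusted p = 0.0626), which was called without colon LF 1 (adjusted p = 0.0454). The main secreted mucin MUC2 had a deposited FPKM of 88.8, 59.6 and 35.5 in ileum and 35.4, 1.24 and 84.0 in colon, so colon LF 2 alone was low. Of 5 membrane mucins 1 was called, MUC12 (2 higher with the epithelial covariate), and MUC4, at 2.25, 0.158 and 0.0693 CPM in ileum and 21.9, 1.14 and 54.5 CPM in colon, was not (4.87 ± 1.69, adjusted p = 0.129).

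A few calls came from 3 further epithelial lists. The cation-permeable tight junction protein CLDN15 was at 89.6, 264 and 203 CPM in ileum and 6.37, 0.268 and 6.27 CPM in colon (-5.42 ± 1.16, adjusted p = 0.0164), 1 of 22 junction genes, and was lost without any 1 colon library (up to 0.0698). NOTUM, a Wnt inhibitor, was called among 20 stem and crypt genes at 2.91, 0.237 and 0.208 CPM in ileum and 0 in colon, at least 19.1-fold lower (adjusted p = 0.03), lost without ileum LF 1 or any 1 colon library (up to 0.169). Of 23 defence genes NOX1 rose and PGLYRP2, a peptidoglycan amidase, fell (-2.46 ± 0.58, adjusted p = 0.03), the latter lost in all omissions but that of ileum LF 3 (up to 0.146). With the epithelial covariate 2 junction genes and 1 crypt gene were called lower, and 2 defence genes higher and 1 lower. The keratin KRT4 was at 6.64, 13.9 and 7.49 CPM in ileum and 0 in colon, at least 159.9-fold lower (adjusted p = 0.031), and was lost in the same 5 omissions (up to 0.12).

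The remaining lists gave 0 calls with edgeR and with limma voom. With the epithelial covariate edgeR called 2 epithelial genes higher and 2 lower, 1 adipocyte and 1 fatty acid oxidation gene higher and 1 clock gene lower. The covariate is the mean of these same epithelial genes, so that fit cannot decide whether they differed as a group. All 17 smooth muscle differences were positive (median 1.80), as were 16 of 16 for fibroblasts and matrix (0.84), 18 of 19 for enteric neurons, glia and Cajal cells (1.17), 14 of 15 for endothelium (0.64) and 13 of 14 for adipocytes (2.61). Without colon LF 2 these medians were 1.43, 0.62, 0.95, 0.34 and 2.43. At an unadjusted p under 0.05 stood 1 smooth muscle, 7 fibroblast, 4 neuron, 0 endothelial and 7 adipocyte genes, and DESeq2 called 0, 1, 1, 0 and 6. Over all genes tested, 7604 of 15675 differences were positive, 21.9% had such a p and DESeq2 called 1286. Epithelial genes were negative in 13 of 18 (median -0.35, and 0.24 without colon LF 2). All 25 cell cycle genes were negative (median -0.69, and -0.20 without colon LF 2), but the tissues did not overlap at only 1 of them. The cell cycle means were 5.13, 5.18 and 4.76 log2 CPM in ileum and 4.13, 1.77 and 5.24 in colon. Colon LF 2 was thus lowest and colon LF 3 above every ileum library. The PI3K-Akt core genes, the pathway named in the title of the series, gave 0 calls among 39 tested, 24 positive and 15 negative, with a median of 0.12. Of the 39, 10 had an unadjusted p under 0.05 (21.9% of all genes did), and DESeq2 called 1. Interferon-stimulated genes (28 tested), cholesterol synthesis (19), fatty acid oxidation (21), clock (19) and immediate early genes (19) gave 0 calls with medians between -0.38 and 0.50. They held 0, 0, 2, 3 and 3 genes at an unadjusted p under 0.05, and DESeq2 called 0, 0, 1, 3 and 0. Cell cycle and epithelial genes held 0 and 2 at that level, and DESeq2 called 0 of each. With ileum LF 1 alone 1 clock gene was called lower.

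The tissue differences on the other 3 diets, which share no library with the low-fibre comparison, pointed the same way for nearly every gene called here. All 4 comparisons come from the same fit and share its estimate of spread for each gene, so their calls are not independent. On HF 476 genes were called between colon and ileum (3.04% of the same 15675), on LN 676 (4.31%) and on HN 453 (2.89%). Of the 69 genes higher in colon on LF, 51 were called higher on HF (73.9%), 33 on LN (47.8%) and 47 on HN (68.1%). The backgrounds were 1.28%, 1% and 1.27% of all genes tested, and the shared genes were 25.5%, 21.0% and 23.6% of those higher on the other diet. Of the 269 genes lower, 178 were called lower on HF (66.2%), 198 on LN (73.6%) and 163 on HN (60.6%), against backgrounds of 1.76%, 3.31% and 1.62%. They were 64.5%, 38.1% and 64.2% of the genes lower on those diets. The sign was shared by 68, 68 and 69 of the 69 and by 269, 268 and 269 of the 269. On all 4 diets 28 genes were called higher and 141 lower. On LF alone 11 were called higher and 52 lower, which does not show that they differ between diets. The median difference of the 69 genes was 2.02 on LF and 1.81, 1.61 and 2.15 on HF, LN and HN, and that of the 269 was -4.46 on LF and -3.36, -3.90 and -3.28. The LF values chose these genes, so the medians are given without a test.

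**Figure D5:**
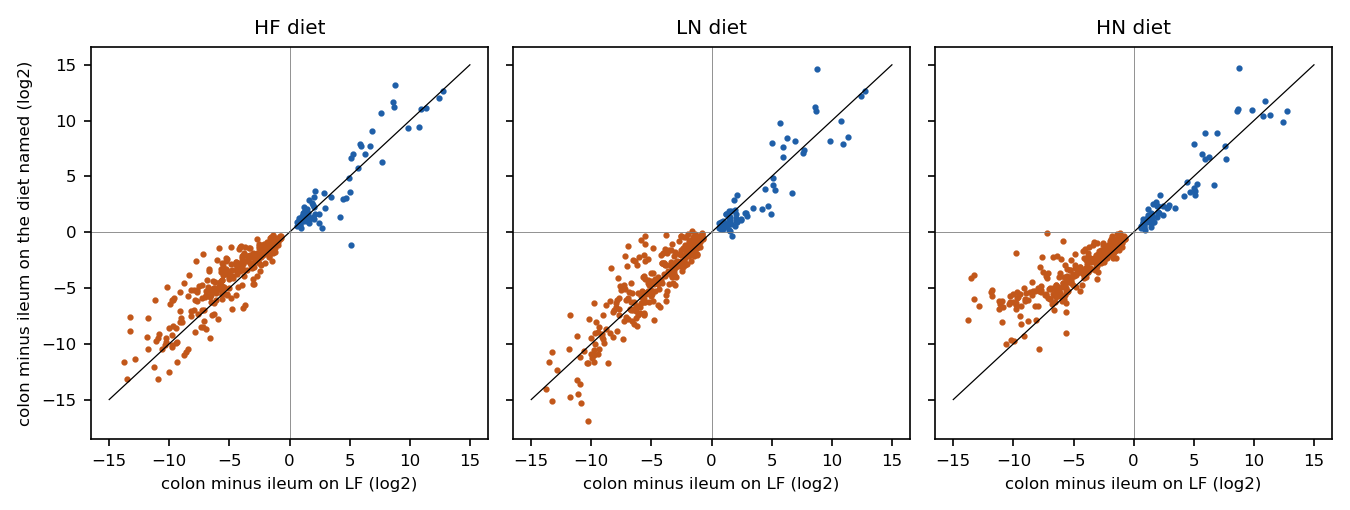
Fitted colon minus ileum log2 difference on HF, LN and HN (3 panels, vertical axis) against that on the low-fibre diet (horizontal axis) for the 338 genes called on LF; orange genes were lower and blue genes higher in colon on LF, and the diagonal marks equal differences. Nearly all points share the sign of the LF value, with 1 blue gene below 0 on HF and on LN and 1 orange gene above 0 on LN.

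Whether the colon to ileum difference itself depended on diet was tested for each gene, and edgeR called 0 of 15675 genes in all 3 tests. The smallest adjusted p was 0.855 for LF against HF, 0.467 for LF against LN and 0.842 for LF against the mean of the other diets, with 501 (3.2%), 1254 (8%) and 769 genes (4.91%) at an unadjusted p under 0.05. limma voom also called 0 in each, and DESeq2 called 2, 32 and 3. All 3 tests share the 6 LF libraries, so they are not independent of each other.

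G6PC had the smallest p of the LF and HF test on the negative side. Its difference was -7.78 on LF and -2.56, -4.15 and -3.15 on HF, LN and HN, and the difference of differences from HF was -5.22 ± 1.26, adjusted p = 0.855. PPP1R3B, a glycogen-targeting phosphatase subunit, was among the 5 genes with the smallest adjusted p on the negative side in all 3 tests. It was at 66.0, 51.7 and 64.6 CPM in ileum and 63.5, 60.1 and 58.4 CPM in colon on LF, a difference of -0.00, against 0.91, 1.0 and 1.25 on HF, LN and HN (LF minus their mean -1.05 ± 0.21, adjusted p = 0.842 by edgeR). DPF3, a chromatin factor, was similar, at 0.11 on LF and 1.66, 1.70 and 1.67 on the others (-1.56 ± 0.37, adjusted p = 0.842). On the positive side EPAS1, a hypoxia-inducible factor subunit, differed by 0.86 on LF and by -0.38, -0.47 and 0.01 on the others (1.14 ± 0.30, adjusted p = 0.842), and EPB41L3 by 0.04 on LF and -3.50 on HF (3.54 ± 0.95, adjusted p = 0.855). CCR9 differed by -6.22 on LF and -2.92 on LN, without passing the test (-3.30 ± 0.91, adjusted p = 0.602). The other genes that the naming rule took from these tests, among them MOGAT1, RIMS1, TRIM13, PON3 and DEGS1 on the positive side and BIRC7, ATP8B3, NPAS1 and CCDC28A on the negative side, did not pass with edgeR either. DESeq2 called PON3, DEGS1, CIDEC, ADIPOR2 and TYW1 between LF and LN (adjusted p = 0.00249, 0.014, 0.0171, 0.00301 and 0.00693).

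The smallest adjusted p of all 3 tests were those between LF and LN. LPGAT1, an acyltransferase, differed by 0.23 on LF and -0.98 on LN (1.21 ± 0.23, adjusted p = 0.467), CDO1, a cysteine dioxygenase, by 2.64 and -3.63 (6.27 ± 1.24, adjusted p = 0.467), and PC by 1.87 and -2.47 (4.34 ± 0.87, adjusted p = 0.467). They passed with DESeq2, as did PPP1R3B against the mean of the other diets. Of the 32 genes that DESeq2 called in this test, 6 belong to the 14 adipocyte genes tested. ADIPOQ, the fat cell hormone adiponectin, differed by 6.81 on LF and -2.85 on LN. The adipocyte list mean was 7.28 log2 CPM in ileum LN 3 against 2.03 and 2.65 in ileum LN 1 and 2 and 2.05 to 2.23 in the LF ileum libraries, and its part in these values was not tested. SLC10A2 was among the 32 genes too (adjusted p = 3.53e-10 by DESeq2). It was at 0 CPM in every LN ileum library and at 225, 0 and 0.416 CPM in those on LF. The unequal position markers of the ileum libraries thus touch the LF and LN test as well, and their part was not tested.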

How the data were processed

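Poly(A) RNA of sow ileum and colon was sequenced as paired-end reads, per the labels' protocols. Reads were trimmed with fastp 0.22.0, aligned to Sscrofa11.1 with HISAT2 2.1.0 and counted per gene with HTSeq 0.9.1, per the submitters' processing notes; strand handling is not given in the sources used here. The authors deposited raw read counts per gene, used for every test, and FPKM values, used for levels between genes; the FPKM follow from those counts and gene lengths. The table holds 20674 genes, all matched to the reference gene table.

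Counts of all 24 libraries (8 groups of 3) were fitted with edgeR 4.0.16 (R 4.3.3), with TMM scaling, its default filter on low counts (15675 genes kept), 1 mean per tissue and diet, and the quasi-likelihood F-test; the 8 groups share 1 estimate of spread with 16 residual degrees of freedom. P-values were adjusted by Benjamini-Hochberg over all genes tested, at a threshold of 0.05. The common biological coefficient of variation was 0.472. The same fit was also run on simulated counts. Every group was given the mean levels of the LF libraries, and the spread followed the mean level and was not set gene by gene. The fit called 7% of 100 genes changed 2-fold and 50% of 100 changed 4-fold in colon LF, with 6 false calls among 15134 unchanged genes. Only genes with a mean above 1 CPM were changed. The simulation held no library that stood apart, so these rates need not hold for the real data. Alternatives were DESeq2 1.42.0, limma 3.58.1 (voom), other scaling, no filter, marker covariates, a replicate block, only the LF libraries, and each LF library left out.

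The 36 gene lists (775 symbols, 738 matched, 705 tested) and the genes compared were chosen with earlier results of these data known. Named genes were the 15 with the largest difference and the 10 with the smallest adjusted p each way among called genes with a symbol, a mean log2 CPM above 0 and no overlap, up to 8 members per list, the label checks, and 5 each way per test between diets. CKM and the position markers beyond this rule were named after their values were seen. Some genes are not reported here and were left out of the lists and their counts. Bounds set 3 counts over the group at 0.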

Additional observations from a re-analysis of the deposited data

How the results depend on the processing

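The LF count of 338 genes (69 higher, 269 lower) was 341 with DESeq2's size factors in edgeR and 291 without a filter. It moved further in other settings. It was 1286 with DESeq2 (477 higher, 809 lower, all 338 among them), 204 with limma voom (43 and 161), 89 with only the 6 LF libraries (9 and 80) and 519 with the epithelial covariate (179 higher). With ileum LF 1 as the only LF ileum library 15 genes were higher. Over the single omissions the total ran from 148 to 442, the higher genes from 22 to 97 and the lower from 111 to 345. The replicate block gave 197 genes (34 higher, 163 lower); same-numbered ileum and colon libraries correlated in their deviations at 0.10, -0.06 and -0.37 on LF, 0.31, 0.17 and 0.21 on HF, -0.10, 0.12 and -0.30 on LN and -0.17, 0.01 and 0.21 on HN. Each HF library correlated best with its own number, a hint from the data, but this did not hold on the other diets, and the numbers were not taken to pair the samples. The tests between diets gave 0 genes in every setting but DESeq2, which gave 2 for LF against HF, 32 for LF against LN and 3 for LF against the rest. DESeq2 called LPGAT1, CDO1 and PC between LF and LN (adjusted p = 1.03e-05, 8.31e-05 and 0.000427) and PPP1R3B between LF and the rest (adjusted p = 0.00679).

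Of 122 named genes, 89 were called and none of these changed direction in any setting; 48 were called in every single omission. Over the single omissions the log2 difference of CPO ran from -5.95 to 9.17, that of FABP6 from -10.99 to 3.25, of SLC10A2 from -5.45 to 3.96, of CUBN from -8.02 to 0.28 and of ASS1 from -1.90 to 1.93, each positive without ileum LF 1. CPO was at 0 CPM in ileum LF 2 and 3, so the size of its positive value depends on the prior count of the fit. With ileum LF 1 alone the difference turned positive for TMPRSS15 (0.49) and MLN (2.57), both near 0 counts in that library and in colon, where it depends on the prior count. With the replicate block it was 1.15 for CPO and 0.61 for ASS1, and with voom 0.88 and 0.18. With the smooth muscle covariate CKM turned negative (-0.88). The cause was not tested. A gene at 0 counts in 3 libraries is bounded at 0.0625 CPM in ileum and 0.0585 CPM in colon.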
